A study of Mus musculus with 5 samples.

Results

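The genes described here are 10 mouse genes of the acute phase and of iron-binding defence: Saa1, Saa2, Saa3, Lcn2, Ltf, Cp, Hp, Orm1, Lbp and Il33. They are 10 of the 24299 gene names that had at least 1 count in single-cell RNA sequencing of PyMT mammary tumours. The list was chosen by their measured UMI levels in epithelial, stromal and immune cells and their joint presence within epithelial cells of these same libraries. Levels by cell class and co-expression are therefore given as descriptions, without a test. Tests were made only between libraries.

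PyMT tumours arise from a middle T antigen transgene of polyoma virus, active in the mammary epithelium of the mouse, so every library compared here is from tumour and none from normal gland. The study placed digested tumours, enriched for viable cells, on 2 platforms: 10x Genomics 3' v2, which captures cells in droplets, and the BD Rhapsody whole transcriptome assay, which captures them in microwells. There were 2 fresh 10x libraries (fresh 10x 1 and fresh 10x 2), 1 10x library titled 24h (stored 10x), and 2 BD Rhapsody libraries (BD 1 and BD 2). Per the labels' protocols, low-quality material was made by leaving the digest at 4 °C overnight until viability had dropped by at least 20%. The title of BD 2 says fresh while its files are named for 24 h. It was therefore kept as a group of its own, its values are given beside the others, and it is contrasted with fresh 10x only in an alternative that groups it with BD 1 by title. The labels give no strain, sex or age of the mice and do not say whether libraries came from separate tumours, so each p-value measures only the spread between the 2 fresh 10x libraries, which may be technical.

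The 5 libraries held 1864 to 4078 cells with at least 200 genes, and 29166129 to 59957945 unique molecular identifiers (UMIs, each marking 1 captured transcript). The median cell had 8926 to 12474 UMIs. The deposited files held 42562 gene names for each fresh 10x library and 32845 for each of the others. The deposited cell with the fewest UMIs had 103 in fresh 10x 1 and 102 in fresh 10x 2. In stored 10x, BD 1 and BD 2 it had 1029, 2577 and 1776. Mitochondrial genes made up a median of 6.14%, 6.99% and 7.17% of UMIs in the 10x libraries and 15.2% and 19.8% in BD 1 and BD 2. Pairs of libraries shared 0 to 24 cell barcodes, the most between BD 1 and BD 2. Cells were clustered without the 10 genes and named from fixed markers, giving 1362 to 2955 epithelial-like and 127 to 362 fibroblast-like cells per library. The 8 epithelial markers, all of them detected, summed to 35.4 to 68.0 UMIs per 10000 in epithelial-like cells, and the 6 fibroblast markers to 445 to 625 in fibroblast-like cells. The other named classes were endothelial-like, mural-like, macrophage-like, T or NK-like and neutrophil-like cells, and the last of these numbered only 2 to 12 cells per library. Values for the 5 libraries are given in the order fresh 10x 1, fresh 10x 2, stored 10x, BD 1, BD 2. A level is the UMIs of a gene per 10000 UMIs of the class, and 95% intervals on levels and shares cover counting error only.

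Acute phase proteins are secreted, mostly by the liver, when interleukin-6, interleukin-1 and related cytokines act through STAT3, NF-kB and C/EBP factors. Several are also made locally by epithelia, and the mammary gland makes serum amyloid A, lactoferrin and lipocalin 2 during involution and mastitis. Lipocalin 2 takes iron away from bacteria by binding their siderophores, lactoferrin binds iron directly, ceruloplasmin oxidises iron for transport, and haptoglobin binds free haemoglobin.

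Saa1, Saa2 and Saa3 encode serum amyloid A proteins, small apolipoproteins of high-density lipoprotein that rise steeply in inflammation. They lie together on chromosome 7 of mm10, Saa3 at chr7:46711998-46715700 on the minus strand, Saa1 at chr7:46740497-46742980 on the minus strand and Saa2 at chr7:46751790-46754313 on the plus strand. The promoters of the 3 genes are shown because Saa1 and Saa2 stand next to each other head to head and had higher levels in epithelial-like than in fibroblast-like cells, while Saa3 had higher levels in fibroblast-like cells. Each line holds 200 bases upstream, from 250 to 51 before the annotated start (RefSeq, GRCm38.p6), 5′ to 3′ on the gene's own strand, at chr7:46743031-46743230 (minus strand) for Saa1, chr7:46751583-46751782 (plus strand) for Saa2 and chr7:46715727-46715926 (minus strand) for Saa3. Capitals mark matches to TTGCNNAA, the letters used here for a C/EBP site, or to GG and TTTCC with any 3 bases between them, those for an NF-kB site, on either strand. N stands for any base.
Saa1: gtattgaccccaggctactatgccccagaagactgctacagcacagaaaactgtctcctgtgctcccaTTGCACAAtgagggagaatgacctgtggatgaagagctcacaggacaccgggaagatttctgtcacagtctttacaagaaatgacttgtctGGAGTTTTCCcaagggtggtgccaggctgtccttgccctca
Saa2: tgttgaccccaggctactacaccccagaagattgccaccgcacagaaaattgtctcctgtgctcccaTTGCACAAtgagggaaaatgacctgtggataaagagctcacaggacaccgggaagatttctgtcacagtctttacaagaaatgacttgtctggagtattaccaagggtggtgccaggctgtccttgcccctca
Saa3: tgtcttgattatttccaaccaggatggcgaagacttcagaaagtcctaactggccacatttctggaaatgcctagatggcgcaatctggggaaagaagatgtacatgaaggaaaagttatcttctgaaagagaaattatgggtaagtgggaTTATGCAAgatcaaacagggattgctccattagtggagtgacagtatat

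Over the 250 bases before their starts, Saa1 and Saa2 were identical at 238 of 251 aligned positions (94.8%). Saa1 and Saa3 were identical at 52.2%, close to the 53.5% between Saa1 and the unrelated promoter of Lcn2. The C/EBP letters stood 182 to 175 bases before the start of Saa1 and 183 to 176 before that of Saa2, and in Saa3 a match of another sequence stood 99 to 92 bases before the start. The NF-kB letters were matched 91 to 82 bases before the start of Saa1 and in no promoter of the other matched genes. Of the 10 genes, 7 had a promoter in the RefSeq table, and each of the 7 held the C/EBP letters before at least 1 of its starts, against 10.8% of the 27025 genes with a promoter in that table. The NF-kB letters occurred in 5.33% of those genes. The letters TTCNNNGAA of a STAT site occurred in 8.13% of them and in none of the 7. A match describes the letters of this window only.

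The transcripts of Saa1 and Saa2 were 93.9% identical, so reads could be divided between them in counting, and their separate values are uncertain to that degree. The same holds for Orm1, whose transcript was 91.0% identical to that of Orm2 and 86.4% to that of Orm3.

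Of the 10 genes, 5 (Saa1, Saa2, Lcn2, Ltf and Cp) were higher in epithelial-like than in fibroblast-like cells in all 5 libraries, and 2 (Saa3 and Il33) were higher in fibroblast-like cells in all 5. Lbp and Hp were higher in 1 class in some libraries and in the other class in others, and Orm1 had too few UMIs to be placed. The plot of levels by class shows this division.

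**Figure D1:**
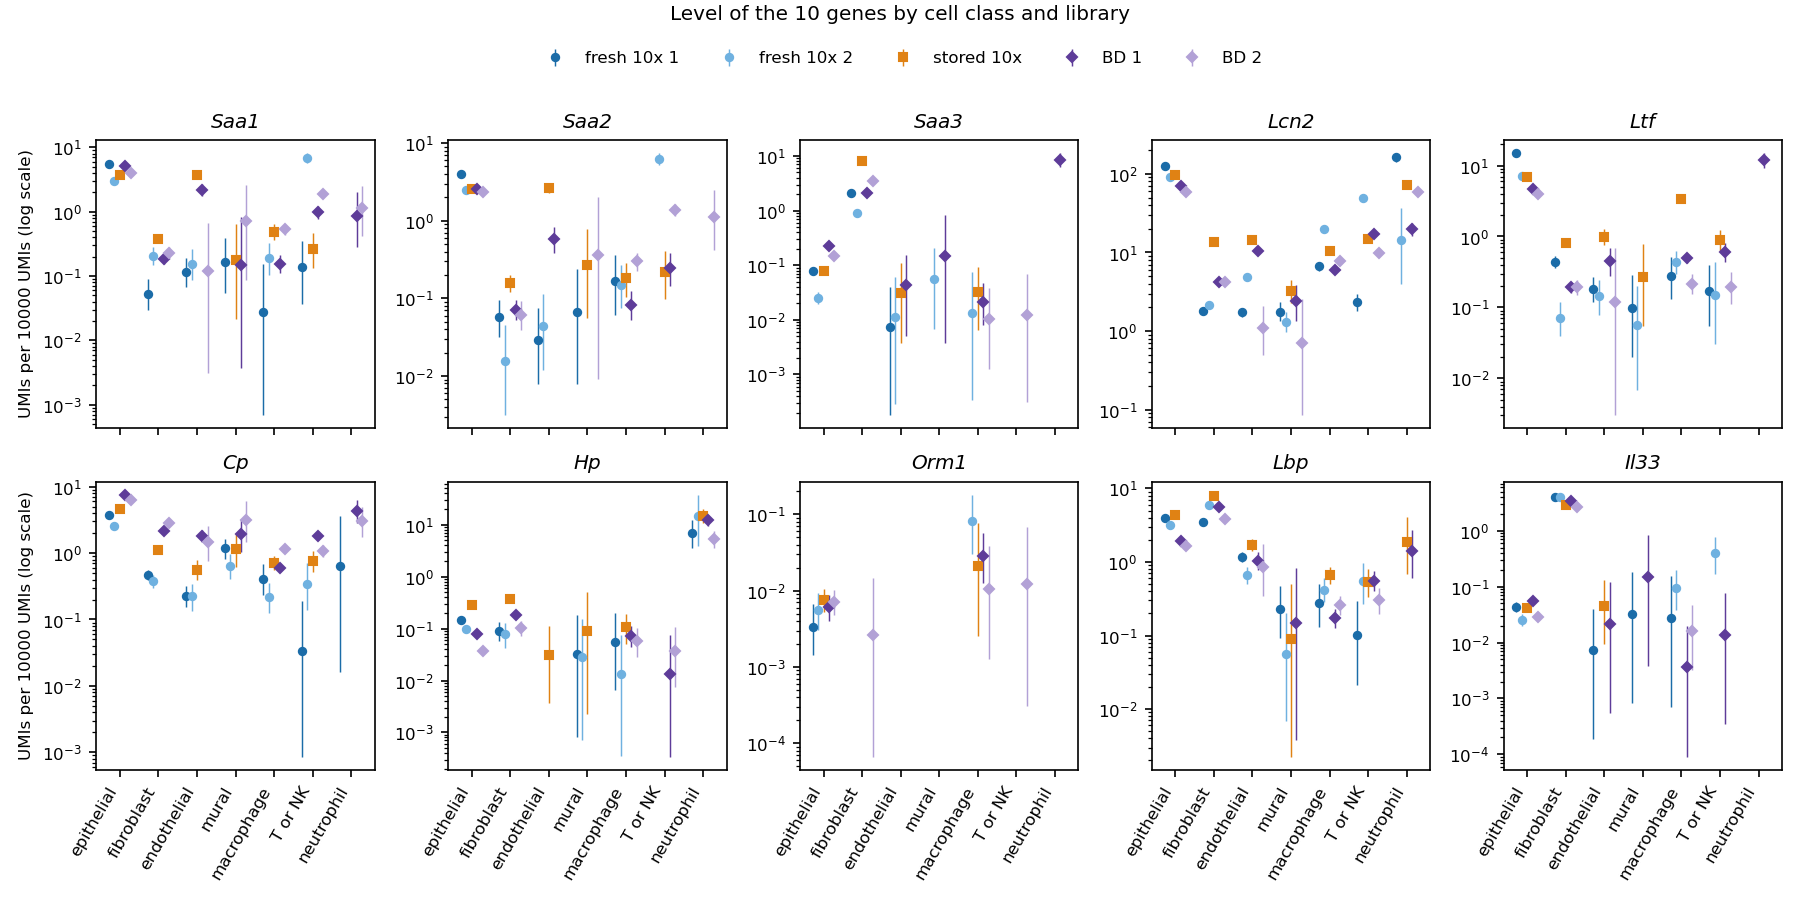
Level of each gene in 7 cell classes of the 5 libraries, in UMIs per 10000 UMIs of the class on a log axis, with 95% Poisson intervals; classes with 0 UMIs are not drawn. Lcn2 stood between 59.1 and 127 in epithelial-like cells, while Saa3 and Il33 were higher in fibroblast-like than in epithelial-like cells of every library.

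Among the iron-binding proteins, Lcn2 (lipocalin 2, chr2:32384633-32388252) was found in nearly every epithelial-like cell. Its level in these cells was 127, 92.1, 96.9, 69.3 and 59.1 UMIs per 10000. When each cell was thinned to 2000 UMIs, 97.5% to 99.2% of epithelial-like cells kept at least 1 Lcn2 UMI (99% to 99.7% without thinning). The 10x libraries all lay above both BD Rhapsody libraries.

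Lcn2 UMIs were also present in fibroblast-like cells, at levels of 1.80, 2.13, 13.5, 4.15 and 4.2. That is 1.42%, 2.31%, 13.9%, 5.98% and 7.12% of the epithelial level of the same library. A set of 5 epithelial genes (Krt8, Krt18, Epcam, Csn3 and Wfdc18) summed in fibroblast-like cells to 1.58%, 1.73%, 11.6%, 5.14% and 6.44% of its epithelial level, with the libraries in the same order as for Lcn2. The part of these background transcripts in the fibroblast value was not tested. In neutrophil-like cells the Lcn2 level was 162, 14.6, 72.3, 19.8 and 58.6, but 1 cell held 98.0% of the UMIs in fresh 10x 1 and 87.1% in stored 10x. The epithelial markers there summed to 53.3, 0, 27.3, 35.3 and 13.6.

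Ltf (lactoferrin, chr9:111019271-111042767) had epithelial levels of 14.9, 7.23, 6.85, 4.73 and 3.97. At 2000 UMIs per cell it was present in 28.5%, 19.6%, 22.7%, 19.3% and 15.4% of epithelial-like cells, against 2.03%, 0.813%, 8.70%, 2.95% and 3.80% of fibroblast-like cells. Unlike Lcn2, it was concentrated in few cells: the 1% of epithelial-like cells with the most Ltf held 27.1% to 35.4% of its thinned UMIs, against 4.06% to 4.53% for Lcn2. The Ltf level in fibroblast-like cells was 0.0720 to 0.806, and in fresh 10x 1 a single cell held 69.0% of it.

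Cp (ceruloplasmin, chr3:19957054-20009145) was present in 39.6%, 29.6%, 44.9%, 56.0% and 52.1% of thinned epithelial-like cells, with levels of 3.79, 2.59, 4.59, 7.43 and 6.38. Here both BD Rhapsody libraries stood above all 10x libraries, the reverse of Lcn2. Stromal cells also carried Cp, with fibroblast levels of 0.471, 0.376, 1.13, 2.16 and 2.82 and mural levels of 1.18, 0.646, 1.16, 1.94 and 3.21. The fibroblast level was 12.4%, 14.5%, 24.6%, 29.0% and 44.3% of the epithelial one, above the share of the 5 epithelial background genes in every library.

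Hp (haptoglobin, chr8:109575128-109579172) was low in epithelial-like cells, at 0.148, 0.0970, 0.279, 0.0798 and 0.0377 UMIs per 10000. Its highest level in every library was in the few neutrophil-like cells, at 7.06, 14.6, 14.9, 12.2 and 5.29, from 11, 4, 48, 70 and 28 UMIs. In these cells Hp was spread over 4 of 5, 1 of 2, 11 of 12, 10 of 12 and 9 of 10 cells. Counting error alone gave the value in fresh 10x 2 a 95% Poisson interval of 3.96 to 37.3. Macrophage-like cells had Hp at 0.0136 to 0.106.

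Among the serum amyloid A genes, Saa1 had epithelial levels of 5.47, 2.99, 3.71, 5.08 and 3.92 and Saa2 of 3.96, 2.45, 2.58, 2.54 and 2.33. At 2000 UMIs, Saa1 was present in 13.6% to 20.4% of epithelial-like cells and in 1.02% to 5.31% of fibroblast-like cells. For Saa2 these shares were 10.1% to 13.9% and 0.813% to 3.42%. Without thinning, Saa1 was present in 26.4% to 37.7% of epithelial-like cells. The epithelial level of Saa1 was 103, 14.5, 9.80, 27.3 and 17.2 times that in fibroblast-like cells, and between 95.5% and 99.4% of all clustered Saa1 UMIs were epithelial.

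High Saa1 values outside the epithelium rested on single cells. In T or NK-like cells of fresh 10x 2 the level was 6.89, above the epithelial one, but 1 cell held 138 of the 139 UMIs. In endothelial-like cells of stored 10x the level was 3.68, and 1 cell held 63.1% of it. Within the epithelium the UMIs were also uneven: the 1% of cells with the most Saa1 held 37.8%, 42.1%, 28.9%, 30.1% and 30.4% of the thinned UMIs.

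Saa3, the serum amyloid A of macrophages, adipose tissue and stroma in mice, was placed differently. Its fibroblast level was 2.06, 0.890, 8.19, 2.09 and 3.53, and its epithelial level was 0.0793, 0.0252, 0.0787, 0.222 and 0.148. Macrophage-like cells held little, at 0 to 0.0319. Few fibroblast-like cells carried it: 6.60%, 7.32%, 6.83%, 7.96% and 8.86% at 2000 UMIs. The cell with the most Saa3 held 44.6%, 25.4%, 57.4%, 16.2% and 42.9% of the fibroblast UMIs, so the class level rested on a handful of cells. In BD 1, 1 neutrophil-like cell held all 49 Saa3 UMIs of its class.

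Among the remaining proteins, Lbp (chr2:158306493-158332852), which hands bacterial lipopolysaccharide to CD14, was found in both tissues. Its epithelial level was 3.99, 3.15, 4.30, 1.91 and 1.66 and its fibroblast level 3.51, 5.86, 7.85, 5.54 and 3.87. Fibroblast-like cells were above epithelial-like cells in 4 of the 5 libraries, with fresh 10x 1 the exception. Endothelial-like cells had 1.16, 0.668, 1.71, 1.04 and 0.850.

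Il33 (chr19:29925114-29960718), an alarmin cytokine kept in the nucleus and released from damaged cells, was a fibroblast gene here. Its fibroblast level was 4.07, 4.08, 2.94, 3.39 and 2.67 against 0.0256 to 0.0547 in epithelial-like cells. At 2000 UMIs it was present in 46.7%, 42.3%, 27.0%, 38.9% and 32.1% of fibroblast-like cells and in 0.301% to 0.872% of epithelial-like cells. Without thinning these shares were 55.2% to 81.9% and 1.90% to 4.45%. No single cell held more than 7.86% of its fibroblast UMIs, unlike Saa3.

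Orm1 (orosomucoid 1, an acute phase glycoprotein of plasma, chr4:63344560-63348163) was barely detected. Epithelial-like cells held 8, 14, 35, 28 and 29 UMIs in all. The epithelial level was 0.00336, 0.00552, 0.00759, 0.00601 and 0.00715 UMIs per 10000. Macrophage-like cells held 0, 6, 2, 8 and 2 UMIs, at levels of 0, 0.0817, 0.0212, 0.0287 and 0.0105, above the epithelial level in 4 of the 5 libraries. The 95% Poisson interval of the highest of these, in fresh 10x 2, was 0.0300 to 0.178. In fibroblast-like cells Orm1 was at 0 in 4 libraries with 1 UMI in BD 2, and in fresh 10x 1 the interval of that 0 reached 0.0140, above the epithelial level.

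Within the epithelium the genes differed by cluster, as the plot of epithelial clusters shows. The clustering did not use the 10 genes, but clusters and members come from the same cells, so these values are a description. Cluster 2 (768 cells) was led by the milk protein genes Csn1s2a, Csn2, Wap and Csn1s1 and by Lao1. It had the highest Saa1 level of the 12 epithelial clusters in every library, 17.7, 11, 10.5, 21.1 and 10.0, and Saa2 at 13.5, 9.12, 6.80, 10.2 and 5.35. Lbp was also highest there, at 7.95, 7.87, 8.56, 4.17 and 3.18, and Ltf stood at 46.8, 25, 20.3, 15 and 18.1.

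Cluster 4 (857 cells), led by Aldh1a3, S100a6, Dmkn, Cryab and Fxyd6, shared the high Ltf, at 34.7, 28.7, 23.7, 23.8 and 18.1, but not the high Saa1, at 1.54, 7.22, 2.44, 2.71 and 3.57. It had the highest Cp level of the 12 epithelial clusters in every library, at 8.78, 5.99, 10.1, 17 and 16. Hp stood at 1.07, 0.332, 1.32, 0.365 and 0.175 in this cluster, above the whole epithelial class in each library. Aldh1a3 is a retinaldehyde dehydrogenase often used as a mark of luminal progenitor cells.

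Cluster 12 (284 cells), led by 2310057J18Rik, Ramp1, Gm11713, Xist and Prkca, came mostly from 1 library: it held 17.3%, 2.13%, 0.249%, 0.342% and 0.0338% of the epithelial-like cells. In fresh 10x 1, with 238 of its cells, Ltf was 24.8 and Lcn2 187, and in fresh 10x 2, with 29, they were 33.3 and 119.8. Both were above the epithelial class in these libraries. The other libraries had at most 9 cells of it, with Ltf at 8.44, 0.296 and 0 and Lcn2 at 105, 78.2 and 29.7.

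Cluster 16 (489 cells), led by the basal keratins Krt5, Krt17 and Krt14 with Apoe and Sparc, had less Lcn2 than the epithelial class in each library, at 37.9, 58.0, 55.8, 47.4 and 40.6. Its Ltf was 0.264 to 1.19, while its Saa1 was 2.96, 2.90, 7.63, 7.87 and 7.66. Il33 reached 0.306, 0.0528, 0.321, 0.221 and 0.107 there. The cycling cluster 3 (1462 cells), led by Ube2c, Birc5, Top2a, Ccna2 and Hmmr, had Cp at 1.10, 1.19, 1.68, 1.96 and 1.74, below the epithelial class in each library.

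The smallest epithelial cluster, cluster 22 (47 cells), was led by Gm4847, Ptn, Plac8, Tph1 and Cited1. The hormone-sensing marker list fixed for naming summed to 31.8 UMIs per 10000 there, against at most 1.35 in the other epithelial clusters. Its Lcn2 level was 1.44, 28.6, 68.6, 6.89 and 8.11, from 4, 6, 11, 13 and 13 cells, so it was the lowest of all clusters in 4 libraries and not in stored 10x. Il33 there was 3.24, 0.765, 0.446, 4.44 and 0.499, higher than in any other epithelial cluster in every library.

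Among the larger clusters without the milk or basal genes, cluster 0 (1673 cells), led by Fcgbp, Cck, Cst3, Spp1 and Fosb, had Cp at 7.21, 4.65, 8.39, 13.8 and 14.1, above the epithelial class. Cluster 6 (2121 cells), led by Tspan1, Akap12, Slco2a1, Mt2 and Tesc, had Ltf at 4.42, 0.343, 1.09, 0.620 and 0.506, below it. Cluster 1 (816 cells), led by the interferon-induced genes Ifit1, Ifi27l2a, Isg15, Oasl2 and Ifit3, had Lcn2 at 144, 101, 128, 95.5 and 77.1, the highest of the 12 clusters in BD 1, BD 2 and stored 10x. Its Saa1 level was 6.11, 1.43, 3.75, 2.55 and 4.10, below the class in fresh 10x 2 and BD 1 and above it in the other libraries.

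**Figure D2:**
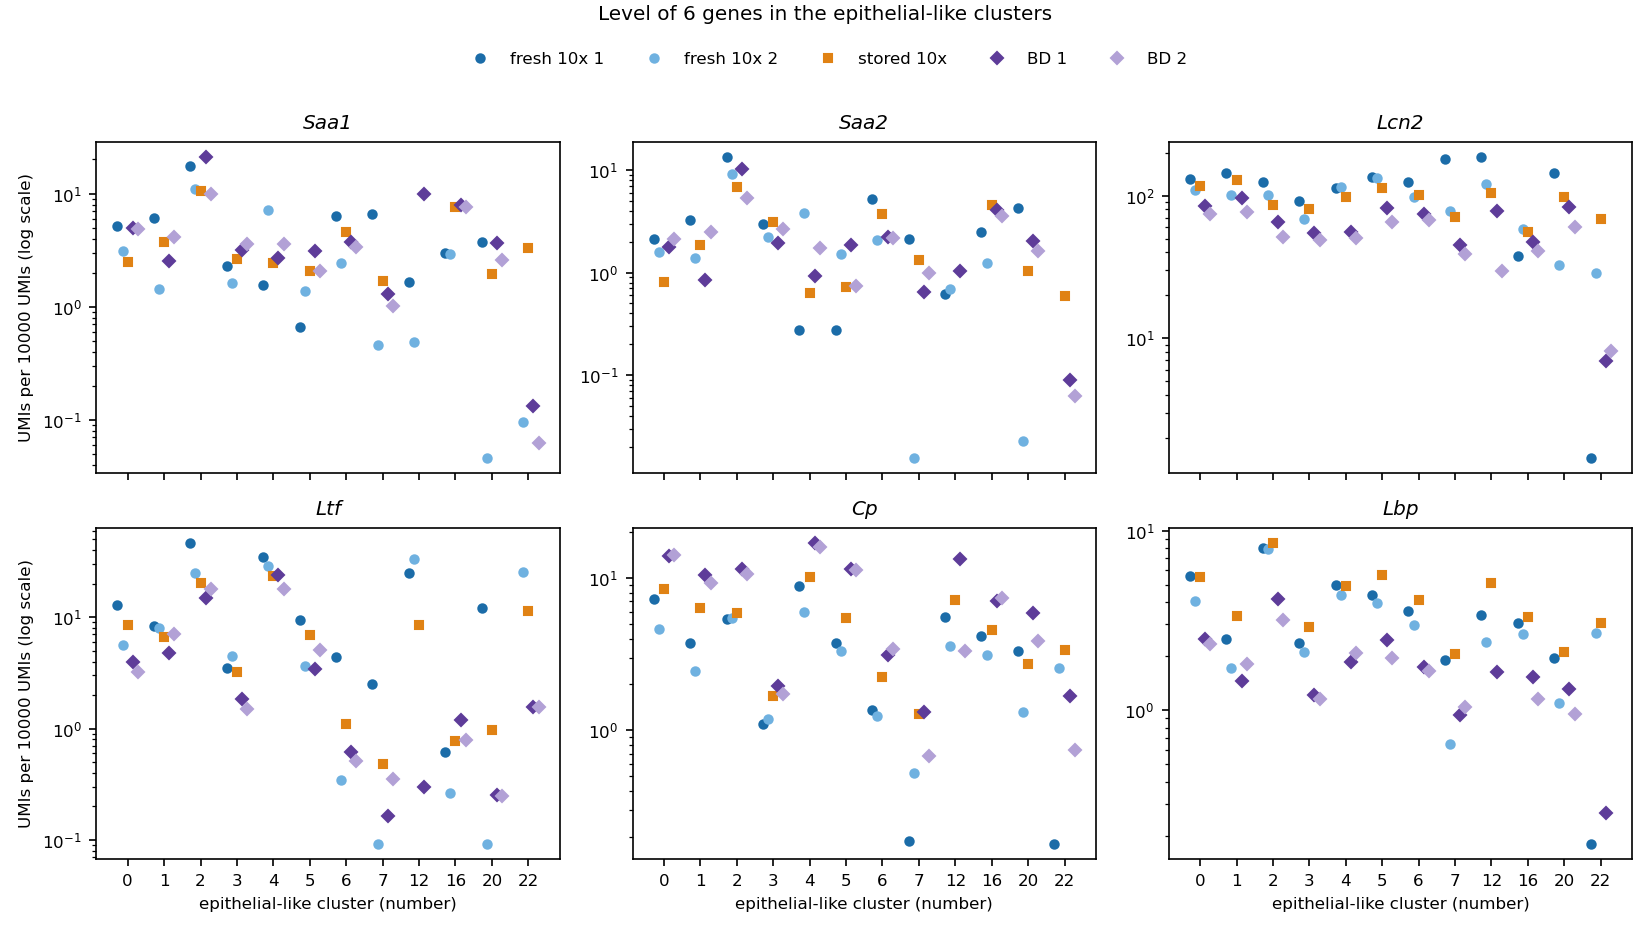
Level of 6 of the genes in the epithelial-like clusters of each library, in UMIs per 10000 UMIs of the cluster on a log axis; clusters at 0 are not drawn. Saa1 peaks in cluster 2 and Cp in cluster 4.

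Within single epithelial-like cells thinned to 2000 UMIs, Saa1 and Saa2 were found together more often than the product of their shares, with a ratio of observed to expected cells of 3.68 to 4.86. Of the 45 possible pairs, 17 had at least 5 cells expected with both genes in every library, and among these 17 Saa1 with Saa2 had the highest ratio. Since Lcn2 was in nearly every cell, the ratios of the 7 pairs that hold it lie near 1 by construction. Of the 10 other pairs, 7 were observed together more often than expected in all 5 libraries, and the median ratio of the 10 was 1.21. Ratios for pairs of other genes are not given, so this count has no background. Within clusters, the median ratio was 3.22 for Saa1 with Saa2 and 0.999 to 1.16 for the rest of these 10 pairs. Saa3 was in few epithelial-like cells, and its pairs with Saa1 and Saa2 fell below the limit of 5, at 1.09 and 0.819 expected cells in the library with the fewest. Their ratios were 2.61 to 4.29 for Saa1 with Saa3 and 3.53 to 5.74 for Saa2 with Saa3, over 1 in all 5 libraries, and within clusters the medians were 2.65 and 3.47.

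Of the cells with Saa1, 52.8%, 49.7%, 43.9%, 46.3% and 47.1% also had Saa2, against 4.36%, 4.01%, 4.56%, 3.92% and 3.69% of the cells without Saa1. Their correlation across cells was 0.69 to 0.76 on log-scaled thinned counts, a value that shares the cells' depth and the similarity of the 2 transcripts. Taken within clusters, so that each cluster has its own expectation, the ratio was 2.81 to 4.16. The ratio of Saa2 to Saa1 UMIs was 0.724, 0.821 and 0.696 in the 10x libraries and 0.499 and 0.594 in BD 1 and BD 2.

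Among the 17 pairs, Ltf with Cp had the second highest median ratio, and its values were 1.33 to 1.72. Ltf was present in 42.5%, 33.8%, 30.1%, 26.6% and 22.1% of the cells with Cp and in 19.4%, 13.7%, 16.7%, 9.86% and 8.06% of those without. Within clusters the ratio was 1.11 to 1.23, so much of the joint presence followed the clusters. Saa1 and Lbp were together at 1.17 to 1.34 times the expectation, and at 1.11 to 1.17 within clusters.

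Saa1 and Ltf, both high in cluster 2, were found together more often than expected in 4 of the 5 libraries. Their ratio was 0.941 to 1.35 with a median of 1.19, and the median correlation was 0.05. Within clusters the ratio was 0.838 to 1.12. By Lcn2 level, the share of cells with Saa1 went from 14.1%, 8.27%, 10.2%, 11.8% and 7.28% in the fifth of cells with the least Lcn2 to 24.6%, 20.8%, 26.9%, 29.7% and 22.0% in the fifth with the most.

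**Figure D3:**
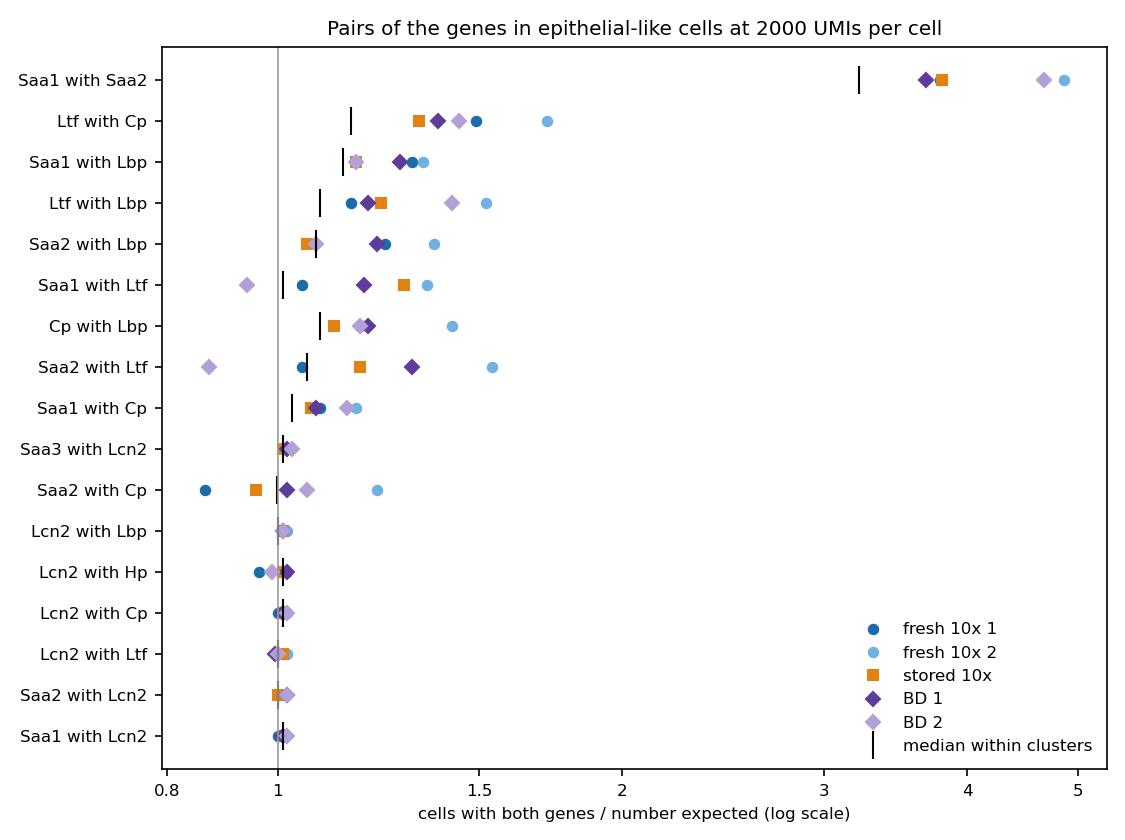
Ratio of observed to expected epithelial-like cells holding both genes of a pair at 2000 UMIs per cell, on a log axis, for the 17 pairs with at least 5 cells expected in every library, with 1 point per library; black ticks mark the median within clusters. Among these, Saa1 with Saa2 stands at 3.68 to 4.86, Ltf with Cp follows at 1.33 to 1.72, and pairs with Lcn2 lie near 1.

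The genes that varied most like each member across epithelial-like cells were ranked by the median correlation over the 5 libraries among 3696 genes, whose own median was near 0. After Saa2, those nearest to Saa1 were Wap at 0.21, Csn2 at 0.20, S100a8 at 0.19 and Csn1s2a at 0.17, of which 3 encode milk proteins and S100a8 a subunit of calprotectin. For Saa2 they were Wap at 0.19, S100a8 and Csn2 at 0.17 and Lao1 at 0.16. Lcn2 was nearest to Trf at 0.45, the gene of transferrin, then Csn3 at 0.38, Fth1 at 0.29, Chil1 at 0.28 and Lrg1 at 0.27. Ltf was nearest to Wfdc18 at 0.42, Mfge8 at 0.32, Csn1s1 at 0.31, Csn2 at 0.30 and Muc15 at 0.27.

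Cp was nearest to Mfge8 at 0.38, Spp1 and Igfbp5 at 0.37, Itm2b at 0.31 and Ly6e at 0.27. Lbp was nearest to Csn3 at 0.24, Spp1 at 0.23, Mfge8 at 0.21, Csn1s1 at 0.19 and Lipa at 0.18. Mfge8, the milk fat globule protein, was thus among the nearest genes of Ltf, Cp and Lbp. Points in these correlations are cells that share a library and a cluster mix.

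Among fibroblast-like cells, Lbp, Saa3 and Cp separated the 2 main clusters while Il33 did not. Cluster 13, led by Efemp1, Clec3b, Dpt and Sfrp4, had Lbp at 12.8, 13.8, 11.1, 7.42 and 4.96, against 1.65, 1.73, 1.47, 0.616 and 0.492 in cluster 17, led by Thbs4, Lrrc15 and Spon1. Saa3 was 6.05, 1.56, 12.2, 2.81 and 4.27 in cluster 13 and 1.27, 0.553, 0.394, 0.222 and 1.35 in cluster 17. Cp was 1.87, 0.638, 1.34, 2.72 and 3.16 against 0.193, 0.174, 0.571, 0.627 and 1.73.

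Il33 was 3.98, 3.6, 3.10, 3.52 and 3.0 in cluster 13 and 4.11, 4.36, 2.83, 3.18 and 1.72 in cluster 17, which was the higher of the 2 in both fresh libraries and the lower in the others. Cluster 13 made up 16.5%, 33.1%, 61.6%, 69.6% and 71.7% of the fibroblast-like cells. Both fresh 10x libraries therefore held a smaller share of it than the 3 others. Another cluster, of 78 cells, led by Meg3 and Ebf1, had few UMIs per cell and Lcn2 at 3.12, 5.92, 52.9, 42.0 and 38.6.

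**Figure D4:**
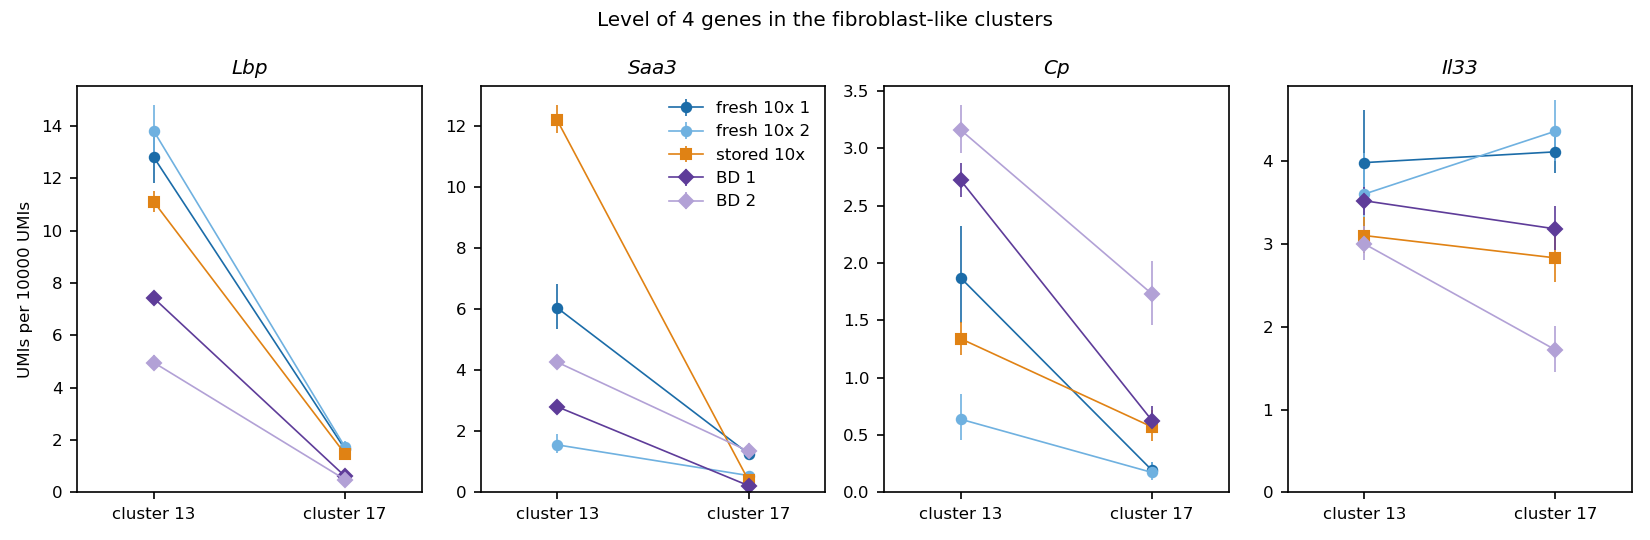
Level of Lbp, Saa3, Cp and Il33 in fibroblast-like clusters 13 and 17 of each library, in UMIs per 10000 UMIs of the cluster, with 95% Poisson intervals. Lbp, Saa3 and Cp are higher in cluster 13 in each of the 5 libraries, and the points of Il33 lie at similar height in both clusters except in BD 2.

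The first comparison asked how the platform altered the epithelial values, setting BD 1 against the 2 fresh 10x libraries on summed counts with edgeR's quasi-likelihood test and Benjamini-Hochberg adjustment over all genes tested. Of the 10 genes, 2 were called higher in BD 1 (Cp and Saa3) and 3 lower (Lbp, Lcn2 and Ltf), at an adjusted p under 0.05. This is to be read against the 41.0% of the 15500 genes that were called, 20.7% higher and 20.2% lower. The median log2 fold change of the 10 was -0.20, and that of all genes tested was 0.02. With 1 library on its side of each comparison, platform in BD 1, or storage in stored 10x, cannot be told apart from library. The gene names and lowest UMI counts of the deposited files also differed between fresh 10x and each library compared with it. Their part in the values was not tested. Here and below, a sum over a class does not separate fewer cells with a transcript from less of it per cell.

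Cp rose by a log2 fold change of 1.06 (SE 0.221, adjusted p = 0.0101, edgeR), and BD 1 at 7.43 lay above both fresh libraries. Lbp fell by 1.06 on the log2 scale (SE 0.175, adjusted p = 0.00415), from 3.99 and 3.15 to 1.91. Lcn2 fell by 0.82 (SE 0.262, adjusted p = 0.0461) and Ltf by 1.39 (SE 0.407, adjusted p = 0.0351). The fresh libraries differed in Ltf themselves, at 14.9 and 7.23, and the log2 fold change was -0.75 against fresh 10x 2 alone and -1.83 against fresh 10x 1 alone. Cluster 12, with high Lcn2 and Ltf in the fresh libraries, made up 17.3% and 2.13% of their epithelial-like cells and 0.342% of those of BD 1. Without it, an alternative chosen after seeing the data, Lcn2 had -0.75 (adjusted p = 0.0303), Ltf -1.25 (adjusted p = 0.0207) and Hp -0.89 (adjusted p = 0.0416).

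Saa3 rose by 1.93 (SE 0.499, adjusted p = 0.0225), from 0.0793 and 0.0252 to 0.222. It was 3.0 against fresh 10x 2 alone and 1.31 against fresh 10x 1 alone. With DESeq2, the calls of Cp (adjusted p = 0.124), Saa3 (0.276), Lcn2 (0.150) and Ltf (0.274) were lost, and that of Lbp was kept. The 5 genes that did not pass had log2 fold changes of 0.10 for Saa1, -0.50 for Saa2, -0.78 for Hp, 0.51 for Il33 and 0.27 for Orm1. The median mitochondrial share was higher in BD 1 than in the fresh 10x libraries, and its part in these values was not tested.

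The same comparison in fibroblast-like cells tested 9 of the 10 genes, since Orm1 did not pass the count filter. Of the 9, 3 were called higher in BD 1 (Cp, Lcn2 and Hp) and none lower, and 4 had an unadjusted p under 0.05. Here and below, counts at an unadjusted p are given without the share of all genes at that threshold. In all, 40.0% of the 12316 genes tested were called, 19.6% higher and 20.3% lower. The 9 genes had a median log2 fold change of 0.50, against 0.02 for all genes tested.

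Cp rose by 2.22 (SE 0.178, adjusted p = 3.47e-05, edgeR), from 0.471 and 0.376 to 2.16. Within cluster 13 alone, an alternative chosen after seeing the data, its log2 fold change was 1.00. No p-value of a gene is given for cluster 13 alone, which had 34 and 42 cells in the fresh libraries. Lcn2 rose by 0.96 (SE 0.171, adjusted p = 0.00200) while the 8 epithelial markers, all detected in fibroblast-like cells of each library, summed to 1.33 and 1.16 in the fresh libraries and 2.37 in BD 1, and the part of these markers in the Lcn2 value was not tested.

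Hp rose by 1.00 (SE 0.265, adjusted p = 0.0149, edgeR), but within cluster 13 alone its log2 fold change was 0.03. Over all fibroblast-like cells DESeq2 gave Hp an adjusted p of 0.527. Lbp had a log2 fold change of 0.13 (adjusted p = 0.719, edgeR) over all fibroblast-like cells and -1.02 within cluster 13. Its level in that cluster was 12.8 and 13.8 in the fresh libraries and 7.42 in BD 1. Saa3 had 0.37 (adjusted p = 0.444, edgeR) over all and -0.59 within cluster 13. Lbp and Saa3 thus had the opposite sign once cluster 17 was left out.

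**Figure D5:**
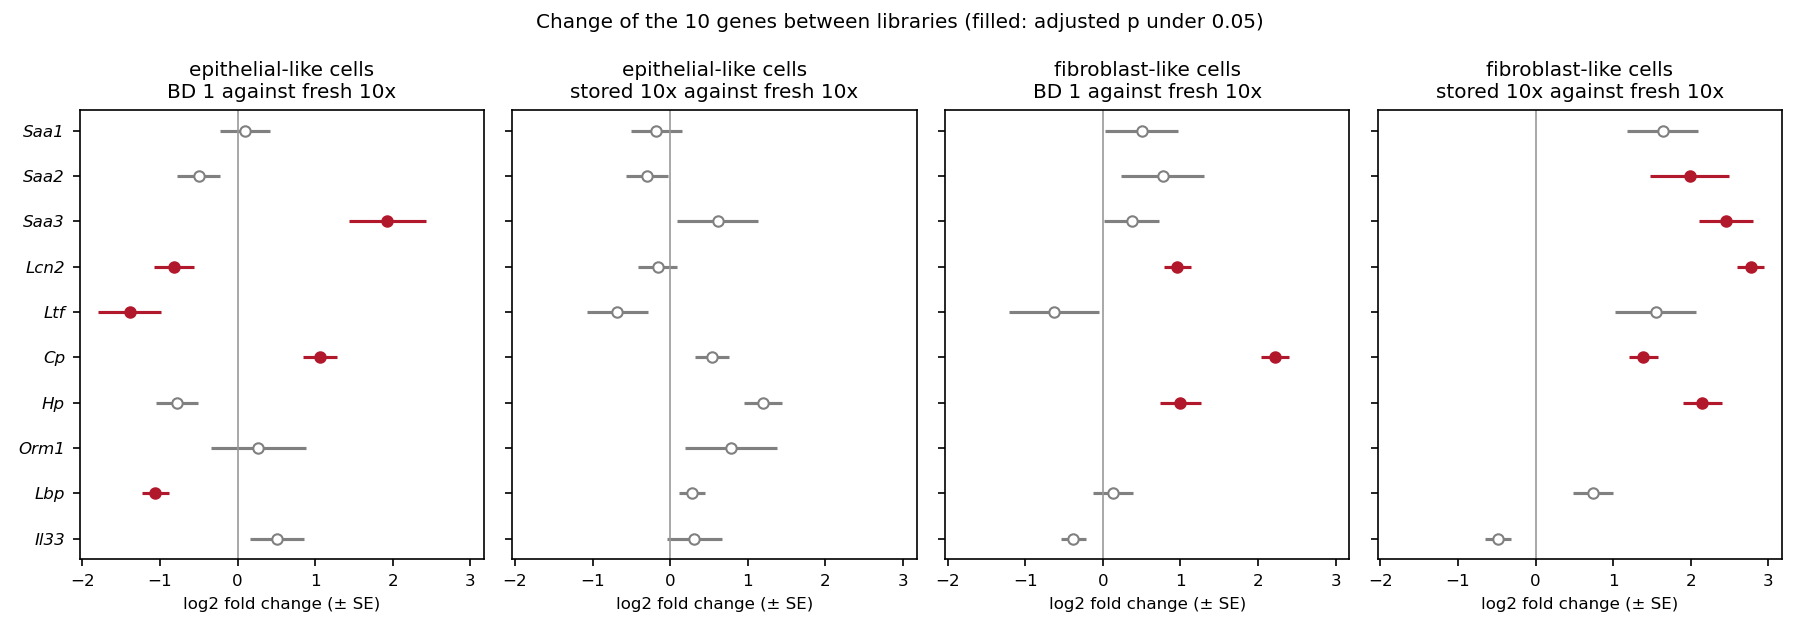
Log2 fold change of each gene against the 2 fresh 10x libraries, for BD 1 and stored 10x in epithelial-like and fibroblast-like cells, with standard errors; filled points have an adjusted p under 0.05. Lbp, Lcn2 and Ltf are filled below 0 in epithelial-like cells of BD 1, and 5 genes are filled above 0 in fibroblast-like cells of stored 10x.

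The second comparison asked what storage of the digest did on 10x, setting the stored library against the same 2 fresh libraries, which both comparisons therefore share. In epithelial-like cells 0 of the 10 genes were called by edgeR or by DESeq2 (which gave Orm1 no adjusted p), and 1 had an unadjusted p under 0.05. The background was also small, with 0.632% of the 15500 genes called, 0.510% higher and 0.123% lower. The gene past the unadjusted threshold was Hp, with levels of 0.148 and 0.0970 in the fresh libraries and 0.279 in the stored one (log2 fold change 1.20, SE 0.244, adjusted p = 0.102). The stored Lcn2, Ltf, Saa1 and Saa2 levels of 96.9, 6.85, 3.71 and 2.58 lay between or just below the fresh ones. Over the 10 genes the median log2 fold change was 0.30, against 0.01 for all genes tested.

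In fibroblast-like cells, 5 of the 9 genes tested were called higher in stored 10x (Lcn2, Saa3, Hp, Saa2 and Cp), none lower, and 9 of 9 had an unadjusted p under 0.05. The share of all genes at that unadjusted p is not given, so the count of 9 has no background. Of all 12316 genes tested, 8.72% were called, 4.86% higher and 3.86% lower. The 9 genes had a median log2 fold change of 1.64, against 0.00 for all genes tested.

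Lcn2 rose by 2.77 (SE 0.169, adjusted p = 8.98e-05, edgeR), from 1.80 and 2.13 to 13.5. The 8 epithelial markers summed to 1.33 and 1.16 in fibroblast-like cells of the fresh libraries and to 7.59 in the stored one, and the 5 background genes stood at 1.58%, 1.73% and 11.6% of their epithelial level, moving with Lcn2. At 2000 UMIs, Lcn2 was found in 20.8% and 22.0% of fresh fibroblast-like cells and in 58.1% of stored ones, and in endothelial-like cells in 23.7%, 31.7% and 71.9%. Saa2 rose by 1.99 (SE 0.509, adjusted p = 0.0431), from 0.0570 and 0.0154 to 0.156, and with DESeq2 its adjusted p was 0.839. The part of epithelial RNA in the values of these 2 genes was not tested. Saa1, another epithelial gene, had 1.64 (adjusted p = 0.0568) and Ltf had 1.55 (adjusted p = 0.104).

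Saa3, which is a fibroblast gene in these libraries, rose by 2.45 (SE 0.348, adjusted p = 0.00325), from 2.06 and 0.890 to 8.19. Without the cell with the most Saa3 in each library, an alternative chosen after seeing the data, the log2 fold change was 1.92 (adjusted p = 0.00198). Within cluster 13 alone it was 1.69, with levels of 6.05 and 1.56 in the fresh libraries and 12.2 in the stored one. The fresh libraries themselves thus lay far apart in that cluster. Against fresh 10x 2 alone it was 3.18 and against fresh 10x 1 alone 1.95, and DESeq2 gave an adjusted p of 0.326. The share of fibroblast-like cells with Saa3 at 2000 UMIs was 6.60% and 7.32% in the fresh libraries and 6.83% in the stored one. Within cluster 13 this share was lower in the stored library, at 27.3% and 14.3% in the fresh libraries and 9.59% in the stored one.

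Cp rose by 1.39 (SE 0.186, adjusted p = 0.00254) and Hp by 2.15 (SE 0.254, adjusted p = 0.00135) over all fibroblast-like cells. Within cluster 13 alone, the log2 fold change was 0.14 for Cp and 0.42 for Hp. In cluster 17, Hp was higher in the stored library, at 0.0276 and 0.0868 in the fresh libraries and 0.619 in the stored one. These levels came from 6, 11 and 77 UMIs. The share of thinned cluster 17 cells with Hp was 1.24% and 0% in the fresh libraries and 1.12% in the stored one. The stored Hp level of cluster 17 thus rested on few cells. Cp in cluster 17 went from 0.193 and 0.174 to 0.571. Cluster 13 made up 16.5% and 33.1% of the fresh fibroblast-like cells and 61.6% of the stored ones. Within that cluster Lcn2 kept a log2 fold change of 2.86, from 1.55 and 1.28 in the fresh libraries to 10.3. Ltf had 2.66 there, from 0.137 and 0.0759 to 0.644. Lbp had 0.74 (adjusted p = 0.109, edgeR) over all and -0.28 within cluster 13, and Il33 had -0.48 (adjusted p = 0.117, edgeR) over all.

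Of the 22 other acute phase genes listed, 21 were in the files and 14 could be tested in epithelial-like cells, where 5 were higher and 1 lower in BD 1. Cfb, complement factor B, fell by 2.12 (SE 0.519, adjusted p = 0.0184, edgeR), and S100a9 at 1.93, Pigr at 1.75 and Fgg at 1.37 were higher. All but Pigr were at very low levels. Cfb went from 0.0138 and 0.0166 in the fresh libraries to 0.00386, and S100a9 from 0.00378 and 0.00197 to 0.0122. Fgg went from 0.0218 and 0.0453 to 0.0968, and Pigr from 0.356 and 0.431 to 1.47. In stored 10x, 1 of the 14 was higher, S100a8, with levels of 0.508 and 0.371 in the fresh libraries and 1.17 in the stored one (log2 fold change 1.42, adjusted p = 0.0425). The medians of the list were 0.65 and 0.52.

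In fibroblast-like cells 11 of these genes were tested, with 6 higher and 4 lower in BD 1 and 4 higher and 1 lower in stored 10x. Serpina3g fell by 3.25 in BD 1 and by 2.06 in stored 10x, from 0.327 and 0.211 to 0.0308 and 0.0653. C3, the central complement component, went from 4.31 and 5.78 to 14 in stored 10x (log2 fold change 1.47, adjusted p = 0.00198), and was also among the 10 leading genes of cluster 13. Pigr and Chil1, at 3.01 and 2.68 in stored 10x, completed the 4 named for that comparison. Cfb at -2.86, Pigr at 2.73 and S100a8 at -2.38 completed those for BD 1. S100a8 was at low levels, 0.0873 and 0.0206 in the fresh libraries and 0.0117 in BD 1. In BD 2 it was 0.125, above both fresh libraries. Pigr was low in fibroblast-like cells, at 0.0114 and 0.00514 in the fresh libraries, 0.0728 in stored 10x and 0.0645 in BD 1. In epithelial-like cells it was 0.356, 0.431, 0.467 and 1.47 in the same libraries. Chil1 went from 0.296 and 0.201 to 1.63 in stored 10x. The part of epithelial RNA in these fibroblast values was not tested.

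Of the ligands known to induce acute phase genes, 8 were tested in epithelial-like cells, where 3 were higher in BD 1 (Tnf at 1.56, Csf3 at 1.56 and Lif at 1.46) and 1 in stored 10x: Csf3, the granulocyte colony-stimulating factor, at 0.0940 and 0.0576 in the fresh libraries and 0.435 in the stored one (log2 fold change 2.54, SE 0.247, adjusted p = 0.0193). In fibroblast-like cells 1 of 7 was higher in each comparison, Il6 in BD 1 (2.49, adjusted p = 9.88e-05) and Tnf in stored 10x (3.0, adjusted p = 0.0222). Il6 was at 0.118 and 0.0720 in the fresh libraries and 0.598 in BD 1. Tnf in fibroblast-like cells was low, at 0.0076 and 0.0103 in the fresh libraries and 0.0728 in stored 10x. In epithelial-like cells of the same libraries Tnf was 0.24, 0.199 and 0.394. The part of epithelial RNA in the fibroblast Tnf value was not tested.

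Among the 24 tested receptors and signalling genes upstream of the acute phase response, 8 were higher and 4 lower in epithelial-like cells of BD 1, and 0 of 24 were called in stored 10x, where 7 had an unadjusted p under 0.05. Cebpb, which encodes the C/EBP factor of the acute phase, fell by 1.17 (SE 0.215, adjusted p = 0.00617), from 21.3 and 15.9 to 9.20, and Socs3, the feedback inhibitor of STAT3 signalling, fell by 1.15 (adjusted p = 0.00367). Il6ra and Il17ra were higher at 1.11 and 1.09. In fibroblast-like cells 13 were higher and 3 lower in BD 1, with Il6ra at 2.52, Il17ra at 1.70, Lifr at -1.24 and Il6st at 1.20. In stored 10x 5 were higher and 0 lower, with Cd14 at 1.93, Il6ra at 1.38, Bcl3 at 0.94 and Nfkbiz at 0.91.

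Of the receptors of the 10 proteins, 5 were tested in each class. In epithelial-like cells of BD 1, Slc22a17, a lipocalin 2 receptor, was higher at 1.52 (SE 0.120, adjusted p = 0.00031) and Scarb1, a lipoprotein receptor, at 0.70. In fibroblast-like cells of BD 1, Il1rl1, the receptor of Il33, was higher at 1.72 (adjusted p = 0.0087) and Slc22a17 at 1.02, while Lrp1, a lactoferrin receptor, was lower at -0.48. None of the 5 was called by edgeR in stored 10x, with 1 and 0 at an unadjusted p under 0.05 in epithelial-like and fibroblast-like cells.

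Iron handling genes were called in both directions in BD 1. In epithelial-like cells of BD 1, 5 of 11 were higher and 2 lower: Steap3 at 2.13 and Tfrc at 1.09 were higher, and the ferritin genes Ftl1 and Fth1 fell by 1.56 and 1.39. Ftl1 went from 22.3 and 21.3 to 8.24, and Fth1 from 68.7 and 53.7 to 26.1. In fibroblast-like cells 3 were higher and 3 lower, with Steap3 at 2.50, Steap4 at 1.89, Tfrc at 1.61 and Ftl1 at -1.64. In stored 10x, Steap4, a metalloreductase, was higher in epithelial-like cells at 0.84 (adjusted p = 0.0485) and in fibroblast-like cells at 1.74 (adjusted p = 0.00105), where Slc39a14, a zinc and iron importer, was lower at -0.65. Each count of these lists stands beside the same share of all genes called in its comparison given above, and for BD 1 that share is large. Counts at an unadjusted p have no such share beside them.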

How the data were processed

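Cells of 5 PyMT tumour libraries were analysed from the count matrices that the authors deposited, raw UMI counts per gene and cell for cells they had already selected. Cell Ranger 3.0.1 and mm10 are listed per the submitters' processing notes, the gene annotation is not given in the sources used here, and a pooled 10x matrix and 2 BD subsets were not used. Cells with at least 200 genes were clustered by Leiden at resolution 1.0 in Python 3.11.15 (scanpy 1.11.5, leidenalg 0.10.2), after leaving out the 10 genes. A cluster took a class name from at least 3 markers with a 2-fold higher level, or from epithelial markers in at least 50% of its cells, and mitochondrial or mixed clusters stayed unnamed. Doublet calling marked 22 cells in fresh 10x 1 and 10 in fresh 10x 2, which were left out. It marked 2, 0 and 0 cells in stored 10x, BD 1 and BD 2, where it did not work, so doublets remain there.

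Shares of cells, co-expression and correlations used cells thinned to 2000 UMIs, and correlations log(1 + count). Counts summed per library and class were tested with edgeR 4.0.16 (quasi-likelihood, TMM, filterByExpr, all 5 libraries, an adjusted p threshold of 0.05), tested first on simulated data, with DESeq2 1.42.0 as an alternative. A model of 4 groups over 5 libraries leaves 1 residual degree of freedom, so BD 1 and stored 10x are assumed to vary like the fresh 10x libraries. Other alternatives were no count filter, cells limited to 500 UMIs or more and 20% mitochondrial UMIs or less, Leiden resolution 2.0, doublets kept, both BD libraries in 1 group, other depths and leaving out each fresh library. The members and gene lists (other acute phase genes, inducing ligands, inducing receptors and signalling, receptors of the members, iron handling) were chosen with earlier results of these data known. Named besides the members are the 5 most correlated genes of each member present in at least 2% of epithelial-like cells in at least 3 libraries, up to 4 called genes per list and comparison with the largest change, and the leading genes of the clusters described. Gene positions are from GENCODE M21 on mm10.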

Additional observations from a re-analysis of the deposited data

Results flagged for a closer look

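For 3 genes the BD 1 values moved one way against both fresh 10x libraries in fibroblast-like cells and the other way in epithelial-like cells. The log2 fold change in fibroblast-like cells minus that in epithelial-like cells was 1.78 for Lcn2, 1.78 for Hp and -0.89 for Il33. In stored 10x, Ltf did the same, with a difference of 2.23. These differences were not tested. In fibroblast-like cells, Lcn2 was 1.80 and 2.13 in the fresh libraries and 4.15 in BD 1. The 5 epithelial background genes stood there at 1.58%, 1.73% and 5.14% of their epithelial level. In stored 10x they stood at 11.6%, and Ltf was 0.806, against 0.441 and 0.0720 in the fresh libraries. The part of epithelial RNA in the Lcn2 and Ltf values was not tested. Hp in epithelial-like cells, Il33 in both classes and Ltf in both classes of stored 10x did not pass the edgeR test, and Ltf in the fresh 10x 1 fibroblast-like cells had 69.0% of its UMIs in 1 cell.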

How the results depend on the processing

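No paired analysis was possible because the groups compared share fewer than 2 replicate numbers. With 1 library in each compared group, leaving out a fresh library gave values without a test, which ranged from -0.75 to -1.83 for Ltf, -0.55 to -1.05 for Lcn2 and 1.31 to 3.0 for Saa3 in epithelial-like cells of BD 1, and from 1.95 to 3.18 for Saa3 and 1.41 to 3.28 for Saa2 in fibroblast-like cells of stored 10x. The median co-expression ratio over the 17 pairs, 7 of them with Lcn2, was 1.08 to 1.10. The ratio of Saa1 with Saa2 was 5.12 at 1000 UMIs per cell and 2.95 at 5000.

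Counts of genes called over all genes moved by more than 1.5 times in these cases. In epithelial-like cells, BD 1 had 3771 with DESeq2 against 6348, and stored 10x had 797 without the count filter, 243 at Leiden resolution 2.0, 173 with doublets kept, 193 without cluster 12 and 331 with both BD libraries in 1 group, against 98. In fibroblast-like cells, BD 1 had 1293 with DESeq2 and 2554 in cluster 13 alone against 4925. Stored 10x there had 1833 without the filter, 1.7e+03 with doublets kept, 193 with DESeq2 and 246 in cluster 13 alone against 1074, and the share called higher was 70.3% in cluster 13 alone against 55.8%. The cause was not tested.

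Signs turned for uncalled genes. In epithelial-like cells of BD 1, Saa1 was -0.03 with both BD libraries in 1 group and -0.01 without cluster 12, and Orm1 -0.20 in cells passing the depth and mitochondrial limits. In fibroblast-like cells of BD 1, Saa3 was -0.26 with doublets kept and -0.59 in cluster 13 alone, Saa2 -0.05, Lbp -1.02 and Ltf 0.80 in cluster 13 alone, Ltf 0.31 without the cell holding the most UMIs, and Lbp -0.09 with both BD libraries in 1 group. In stored 10x Lbp was -0.28 in cluster 13 alone. Cluster 13 alone and leaving out cluster 12 or the top cell were chosen after seeing the data. The call of Saa2 in stored fibroblast-like cells was lost without the top cell (1.88, adjusted p = 0.0804, edgeR), and that of Hp in BD 1 fibroblast-like cells with doublets kept (0.61, adjusted p = 0.0885). Among single genes and pairs, 378 values were the same. They kept direction and call or, without a test, lay within the SE or the standard deviation over libraries of the main value. Another 65 values without a test moved further. Of these, 28 came from leaving out fresh 10x 1 and 25 from leaving out fresh 10x 2, where 10 and 13 stayed the same. A call was gained by 23 values and lost by 15, and 11 changed sign.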
